A study of Mus musculus with 9 samples.

Results

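The genes examined were those of the aminoacyl-tRNA synthetases, followed through 3 populations of dendritic cell (DC) development in mouse bone marrow. Members were chosen by symbol, from probe sets that name a single gene: a letter followed by "ars", with or without a final digit, together with Eprs, Farsa and Farsb. Where a gene had several such probe sets, which was the case for Iars alone, the probe set with the highest mean over the 9 arrays was selected. This gave 34 of the 19938 genes measured, 18 of them cytosolic forms and 16 mitochondrial forms, whose symbols end in 2. The probe set for Aars names a second gene as well, so Aars was not counted. Tarsl2, a threonyl-tRNA synthetase gene that the symbol rule does not reach, was left out, with population means of log2 6.63, 6.69 and 6.71.

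The mice carried a heterozygous Zbtb46-GFP reporter, in which green fluorescent protein reports the gene of the transcription factor Zbtb46, a marker of the classical DC lineage. Marrow of pelvis, tibia and femur was sorted by flow cytometry into common DC progenitors (CDPs) without the reporter signal (Zbtb46-neg CDPs), CDPs with it (Zbtb46-pos CDPs) and pre-CD8 DCs, precursors of the CD8-positive classical DC, also called cDC1. All 3 populations came from reporter mice, and 3 arrays were hybridized for each. The series set out to obtain signatures of these cells along their developmental order, so the comparisons were Zbtb46-pos against Zbtb46-neg CDPs (the first step), pre-CD8 DCs against Zbtb46-pos CDPs (the second step) and pre-CD8 DCs against Zbtb46-neg CDPs (the whole span). The labels give neither sort gates, age nor sex. Nothing in them ties replicates to single mice or to pools, so a p-value here reflects array-to-array spread, which may be technical.

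Aminoacyl-tRNA synthetases join each amino acid to its transfer RNA, the step that fixes the genetic code before the ribosome is reached. A nuclear gene encodes each enzyme, and for most amino acids separate genes supply the cytosol and the mitochondrion. Several cytosolic enzymes sit together with scaffold proteins in the multisynthetase complex, and many synthetase genes are known targets of Atf4, the transcription factor of the amino acid response, and of Myc, a driver of growth.

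Of 5 members, Tars, Iars, Farsb and Yars fell at the first step, as described below, and Gars was not shown to fall. Their promoter stretches are shown because they hold motifs that Atf4 or Myc is known to bind. They run from 100 bases before to 30 bases after the RefSeq start (GRCm38.p6), 5′ to 3′ on the gene's strand, with motif matches in capitals: CACGTG, the E-box bound by Myc and its relatives, and TGATGNAA or its reverse complement, the core of the amino acid response element. The stretch of Tars lies at chr15:11399629-11399758 on the minus strand, Iars at chr13:49682030-49682159 on the plus strand, Farsb at chr1:78488868-78488997 on the minus strand, Yars at chr4:129189803-129189932 on the plus strand and Gars at chr6:55037901-55038030 on the plus strand.
Tars: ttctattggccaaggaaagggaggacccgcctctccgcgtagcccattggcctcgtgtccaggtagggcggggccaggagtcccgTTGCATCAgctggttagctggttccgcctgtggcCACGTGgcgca
Iars: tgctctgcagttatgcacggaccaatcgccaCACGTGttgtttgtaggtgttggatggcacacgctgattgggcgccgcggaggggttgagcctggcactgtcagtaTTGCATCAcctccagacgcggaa
Farsb: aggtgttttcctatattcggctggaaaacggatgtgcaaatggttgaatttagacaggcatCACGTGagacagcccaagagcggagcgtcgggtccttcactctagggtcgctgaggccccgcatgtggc
Yars: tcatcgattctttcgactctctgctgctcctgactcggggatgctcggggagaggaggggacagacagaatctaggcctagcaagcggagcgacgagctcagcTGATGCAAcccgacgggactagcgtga
Gars: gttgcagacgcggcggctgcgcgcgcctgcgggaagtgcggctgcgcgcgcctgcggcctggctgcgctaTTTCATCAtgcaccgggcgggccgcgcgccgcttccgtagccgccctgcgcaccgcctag
Tars and Iars held both motifs in this stretch, Farsb the E-box alone, and Yars and Gars the amino acid response core alone.

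Before the members are described, the arrays need 3 remarks. Genes of the cDC1 lineage mostly followed the order of the labels, with 7 of 9 rising at each step, against 3.85% and 4.76% of all genes. Irf8 was called (limma adjusted p under 0.05) at neither step, Clec9a at the second alone and Cd24a at the first alone. Genes of CDPs were mixed: of 5, 4 fell at the first step, which lies within CDPs, and at the second 2 fell and 2 rose. Of all genes 10.6% fell at the first step, and at the second 1.86% fell. Csf1r went from 11.22 to 10.31 and then to 7.56, and Flt3 from 11.19 to 10.70 and 11.29. Il7r, listed as low in CDPs, went from 5.79 to 4.83 and 4.92. Kit, another CDP gene, went from 10.47 to 10.68 and 11.58. Replicate 1 of both CDP populations stood apart in Xist, the RNA of the inactive X chromosome of female cells, at log2 5.59 and 5.30 against 11.85 to 12.29 in the other 7 arrays. The summed signal of 10 neutrophil lineage genes was 31522 in replicate 1 of the Zbtb46-pos CDPs against 7227 and 7185 in the other two. It ran from 23941 to 28664 in Zbtb46-neg CDPs and from 946.2 to 1944 in pre-CD8 DCs. In Zbtb46-neg CDPs the sum is mostly that of Mpo and Prtn3, genes of immature myeloid cells. Genes of mature neutrophils were high in replicate 1 of both CDP populations: Ngp read 10.48 and 12.36 there, against 5.70 and 6.84 in the other Zbtb46-neg arrays and 5.39 and 5.73 in the other Zbtb46-pos arrays. S100a8 read 9.86 and 11.58 there, against 5.80 and 6.65, and 6.07 and 5.58. In pre-CD8 DC replicates 1 to 3 Ngp read 8.30, 5.78 and 8.54, and S100a8 read 7.81, 6.11 and 7.52. All 10 of these genes were measured, Mpo fell from 13.63 to 11.91 at the first step, and the part of such cells in the results was not tested. Because each array reads a sorted population in bulk, fewer cells of a type and less RNA per cell cannot be told apart.

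At the first step many synthetase genes fell and none rose. In Zbtb46-pos CDPs 21 of the 34 were lower than in Zbtb46-neg CDPs (limma, adjusted p under 0.05 by the Benjamini-Hochberg method across the whole table) and 13 were not called. None was called higher, at an unadjusted p under 0.05 either, where 23 members were lower, against 18.3% of all genes. At the adjusted threshold, among all genes tested, 10.6% were called lower and 3.85% higher at this step. Among genes above the median of the table in at least 3 arrays, a set without the dimmest genes, 21% were called lower. The estimate was below 0 in 33 of the 34 members, and their median log2 difference was -0.50, against 0.04 over all genes and -0.10 over those brighter genes. The 3 Zbtb46-pos arrays lay wholly below the 3 Zbtb46-neg arrays in 23 members, and in 17.4% of all genes.

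**Figure D1:**
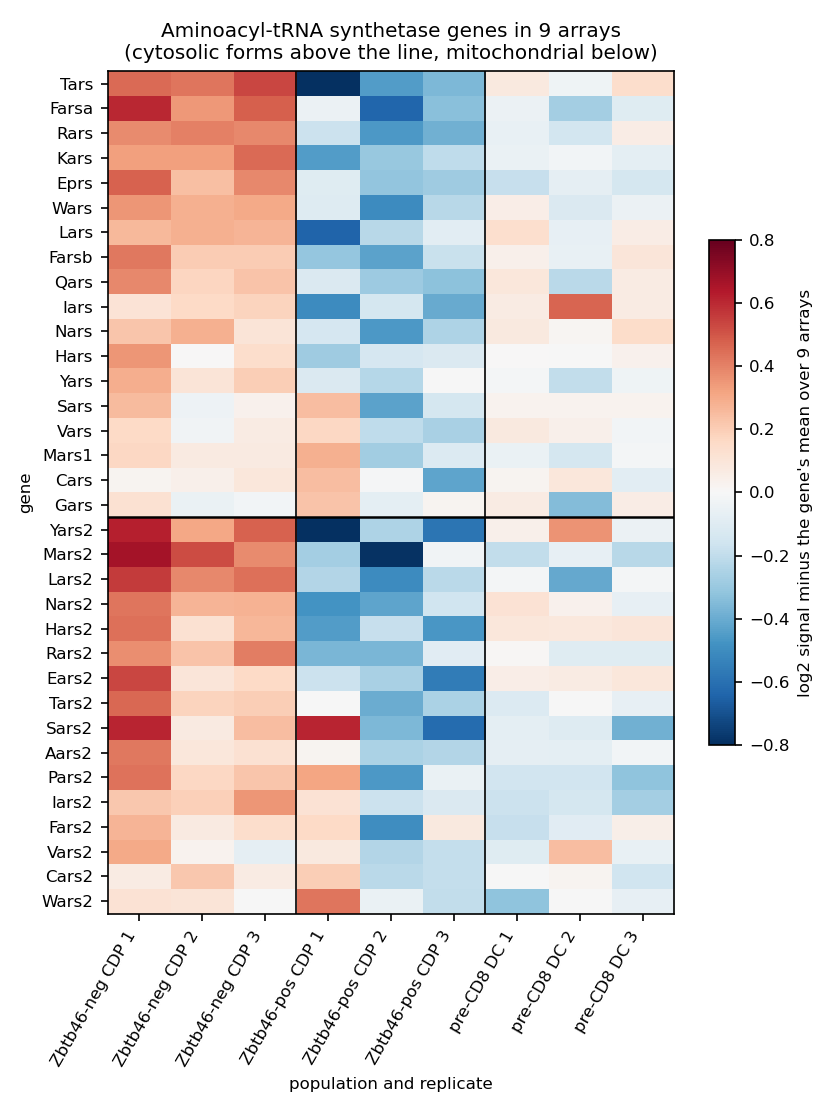
Log2 signal of the 34 synthetase genes (one per line, cytosolic forms above the dividing line and mitochondrial forms below) in the 9 arrays, shown as the distance from each gene's mean over the arrays, red above it and blue below it. The 3 Zbtb46-neg CDP arrays are mostly red and replicates 2 and 3 of the Zbtb46-pos CDPs mostly blue, while Sars2 is high in replicate 1 of both CDP populations.

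Yars2 and Tars fell most in the fit of all 9 arrays. Yars2 charges mitochondrial tyrosine tRNA. Its log2 signal was 8.76, 8.44 and 8.61 in Zbtb46-neg CDPs, 7.21, 7.89 and 7.55 in Zbtb46-pos CDPs, and 8.18, 8.50 and 8.09 in pre-CD8 DCs. All 3 Zbtb46-pos arrays were the low ones, with no overlap with either neighbour. The mean went from 8.60 ± 0.16 (SD, n = 3) to 7.55 ± 0.34, a log2 difference of -1.06 (SE 0.18), 2.08-fold lower, with a limma adjusted p of 0.00427. Tars, the cytosolic threonine enzyme whose promoter stretch is printed above, read 8.86, 8.84 and 8.94, then 7.61, 7.96 and 8.05, then 8.48, 8.37 and 8.55. Its populations did not overlap at all and the Zbtb46-pos arrays were lowest. The mean fell from 8.88 ± 0.06 (SD, n = 3) to 7.87 ± 0.23, 2.01-fold, with a log2 difference of -1.01 (SE 0.11) and a limma adjusted p of 0.00058.

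Mars2 and Farsa followed. Mars2, the mitochondrial methionine enzyme, read 9.07, 8.93 and 8.79 in Zbtb46-neg CDPs, 8.14, 7.62 and 8.38 in Zbtb46-pos CDPs and 8.21, 8.35 and 8.19 in pre-CD8 DCs. The Zbtb46-neg arrays were all above the rest, and the later populations overlapped. The log2 difference at the first step was -0.88 (SE 0.17, 1.84-fold lower, limma adjusted p 0.00926). Farsa encodes the catalytic subunit of the cytosolic phenylalanine enzyme, and read 9.76, 9.50 and 9.63, then 9.10, 8.52 and 8.81, then 9.10, 8.88 and 9.05. Again the Zbtb46-neg arrays alone stood clear. It fell by 0.82 on the log2 scale (SE 0.14, limma adjusted p 0.00542), and Farsb, its partner subunit, fell by 0.58 (SE 0.09, limma adjusted p 0.00376).

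**Figure D2:**
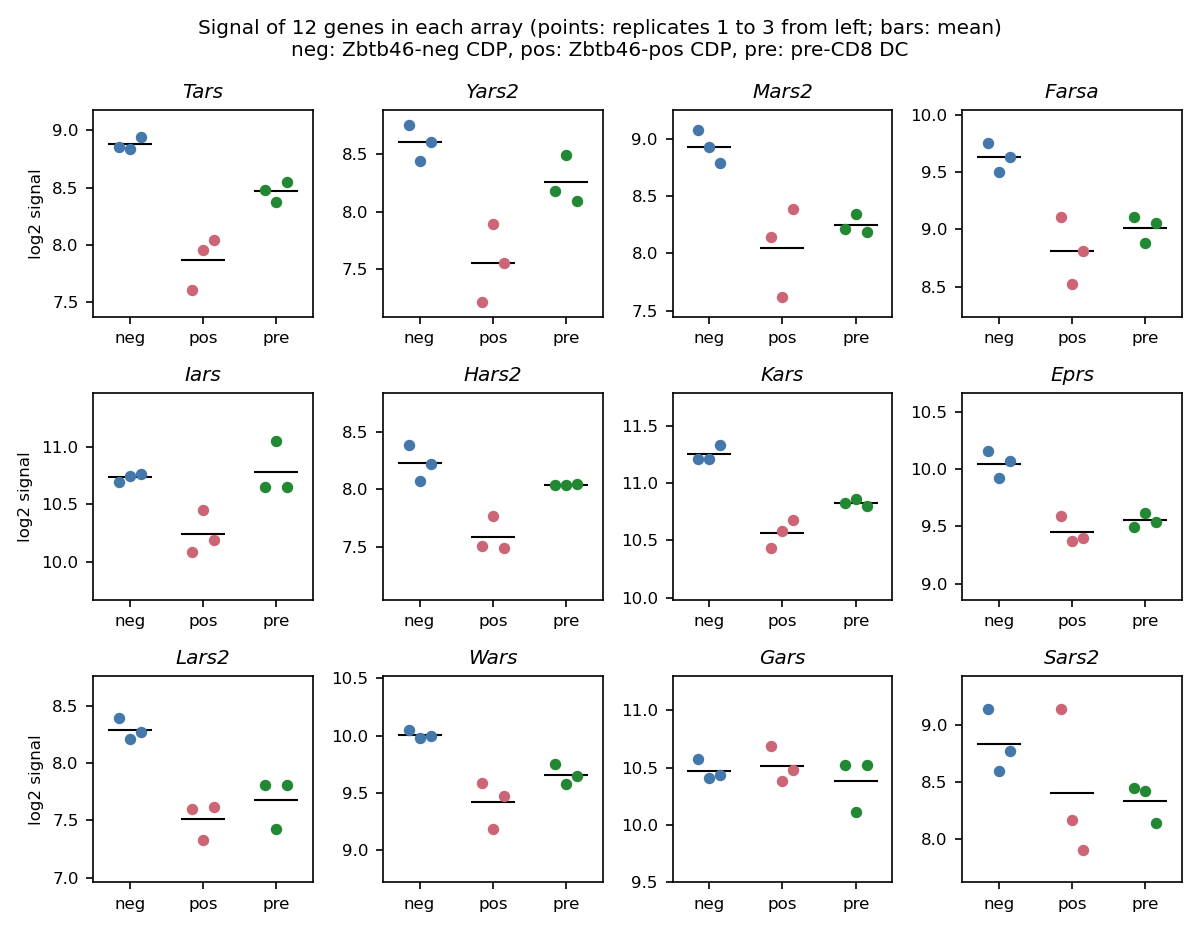
Log2 signal (vertical axis, 1.8 log2 units in every panel) of 12 synthetase genes in each of the 9 arrays, with points for replicates 1 to 3 and a bar at the mean of each population. Tars and Yars2 are lowest in all 3 Zbtb46-pos CDP arrays, Gars overlaps across populations, and Sars2 in Zbtb46-pos CDPs spans 7.91 to 9.14.

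The cytosolic forms fell in 13 of 18 cases, with a median log2 difference of -0.50. Kars, whose product serves both cytosol and mitochondrion, read 11.21, 11.21 and 11.33 in Zbtb46-neg CDPs, 10.43, 10.58 and 10.68 in Zbtb46-pos CDPs and 10.83, 10.86 and 10.80 in pre-CD8 DCs. Its arrays fell into 3 separate levels, with a log2 difference of -0.69 (SE 0.08, limma adjusted p 0.000702) at the first step. Eprs, the enzyme that charges both glutamate and proline tRNAs, read 10.15, 9.92 and 10.07, then 9.59, 9.37 and 9.40, then 9.50, 9.61 and 9.54. It was high in Zbtb46-neg CDPs and overlapped between the other populations. It fell by 0.60 (SE 0.09, limma adjusted p 0.00247).

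Wars, the tryptophan enzyme, known for its induction by interferon, read 10.05, 9.98 and 10.00, then 9.59, 9.19 and 9.47, then 9.75, 9.58 and 9.65. The Zbtb46-neg arrays were again the high ones. Its log2 difference was -0.59 (SE 0.10, limma adjusted p 0.00565). Gars, the glycine enzyme, which like Kars serves both compartments from a single gene, read 10.58, 10.41 and 10.44, then 10.69, 10.38 and 10.48, then 10.52, 10.11 and 10.52. Its 3 populations overlapped, and its log2 difference of 0.04 (SE 0.13) was the sole estimate above 0 at this step. The other cytosolic forms that fell were Rars by 0.73, Lars by 0.59, Qars by 0.50, Iars by 0.50, Nars by 0.48, Hars by 0.34 and Yars by 0.31. Cars, Mars1, Sars and Vars were not called, with log2 differences from -0.19 to -0.11.

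The catalytic architecture divides the enzymes into class I and class II, which differ in the fold that binds ATP. Of the cytosolic class I genes 7 of 10 fell, with a median log2 difference of -0.50, and of the class II genes 6 of 8, with a median of -0.53. Eprs, which charges both glutamate and proline tRNAs, was counted in class I alone. In the multisynthetase complex 6 of the 7 synthetases measured fell (Eprs, Iars, Kars, Lars, Qars and Rars), with a median of -0.59. Mars1, at -0.14, was the complex member not called. Of the cytosolic enzymes outside the complex 7 of 11 fell, with a median of -0.34. These groups were described and not tested against each other.

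The mitochondrial forms fell in 8 of 16 cases, with a median log2 difference of -0.46. Beside Yars2 and Mars2 these were Lars2, Nars2, Hars2, Rars2, Ears2 and Tars2. Lars2, the mitochondrial leucine enzyme, read 8.39, 8.21 and 8.27 in Zbtb46-neg CDPs, 7.60, 7.33 and 7.61 in Zbtb46-pos CDPs and 7.81, 7.42 and 7.81 in pre-CD8 DCs. Zbtb46-neg CDPs stood above both later populations, which overlapped. The log2 difference was -0.78 (SE 0.13, limma adjusted p 0.00376). Nars2 fell by 0.68, Hars2 by 0.64, Rars2 by 0.61, Ears2 by 0.59 and Tars2 by 0.50. Ears2 and Nars2 were also the members with a population mean below the median of the whole table, log2 6.82, at 6.59 and 6.54 in Zbtb46-pos CDPs.

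Of the 8 mitochondrial forms not called, Iars2 was at -0.31 (limma adjusted p 0.0556) and Aars2 at -0.37 (limma adjusted p 0.0547), just outside the threshold. Yars at -0.31 (adjusted p 0.0474) and Hars at -0.34 (adjusted p 0.0438) were just inside it. Pars2, Fars2, Vars2, Cars2 and Wars2 lay between -0.34 and -0.01. Sars2, named after its values were seen, read 9.13, 8.59 and 8.77 in Zbtb46-neg CDPs and 9.14, 8.17 and 7.91 in Zbtb46-pos CDPs. Replicate 1 of the Zbtb46-pos CDPs was its highest array of all 9, with replicate 1 of the Zbtb46-neg CDPs nearly level. The log2 difference was -0.43 (SE 0.28, limma adjusted p 0.346).

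Setting the cytosolic and mitochondrial forms for the same amino acid side by side gave 14 pairs over 13 amino acids, phenylalanine counting in 2 pairs because its cytosolic enzyme has subunits from separate genes. Both forms fell in 6 pairs, those of arginine, asparagine, histidine, leucine, threonine and tyrosine. In 4 pairs the cytosolic form alone was called, in 1 the mitochondrial form alone, and in 3 (cysteine, serine and valine) neither. The pairs farthest apart were tyrosine, with Yars at -0.31 and Yars2 at -1.06, and methionine, with Mars1 at -0.14 and Mars2 at -0.88. Tryptophan ran the other way, with Wars at -0.59 and Wars2 at -0.01, as did threonine, with Tars at -1.01 and Tars2 at -0.50. The mitochondrial estimate was the lower in 8 of the 14 pairs, and the difference within a pair was not tested.

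**Figure D3:**
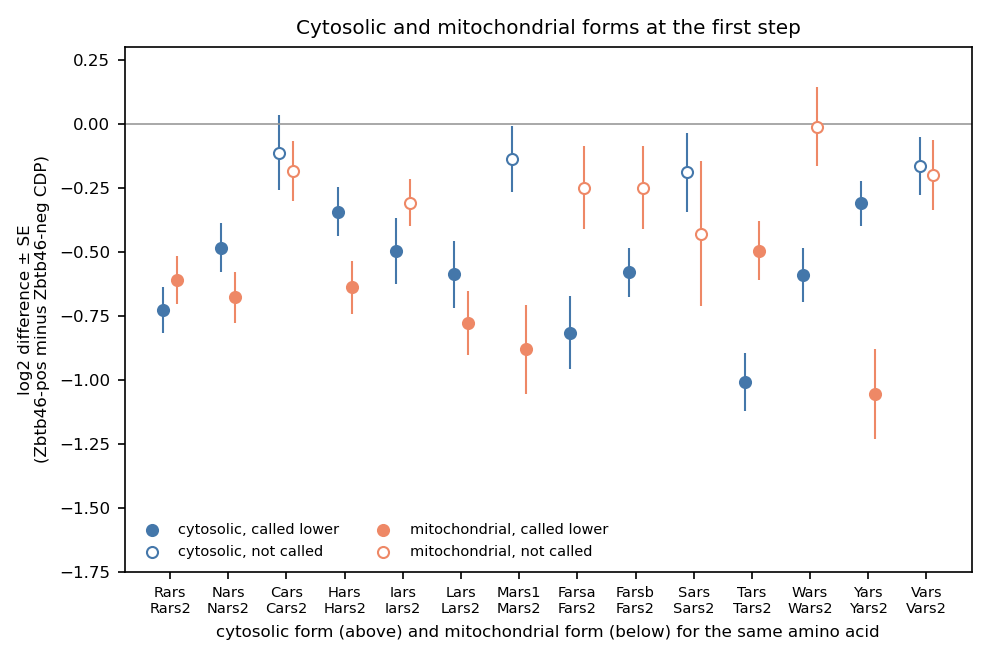
Log2 difference between Zbtb46-pos and Zbtb46-neg CDPs (vertical axis, point and SE) for the cytosolic form (blue) and the mitochondrial form (orange) of each amino acid, filled where limma called the gene lower. Yars2 and Mars2 lie well below their cytosolic partners, and Tars, Wars and Farsa below their mitochondrial partners.

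At the second step most estimates lay above 0 and few passed the test. From Zbtb46-pos CDPs to pre-CD8 DCs 4 of the 34 genes rose (limma, adjusted p under 0.05), namely Yars2, Tars, Iars and Hars2. Among all genes 4.76% were called higher and 1.86% lower. No member was called lower, at an unadjusted p under 0.05 either, where 12 members were higher, against 12.2% of all genes. The estimate was above 0 in 28 members, with a median log2 difference of 0.18 against -0.03 over all genes. The pre-CD8 arrays lay wholly above the Zbtb46-pos arrays in 12 members, and in 12.6% of all genes.

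Tars rose by 0.60 on the log2 scale (SE 0.11, limma adjusted p 0.0151), from 7.87 ± 0.23 to 8.47 ± 0.09 (SD, n = 3), and Yars2 by 0.71 (SE 0.18, limma adjusted p 0.0466), to 8.26 ± 0.21. Hars2, the mitochondrial histidine enzyme, read 8.39, 8.07 and 8.22, then 7.51, 7.77 and 7.49, then 8.04, 8.04 and 8.05. The Zbtb46-pos arrays were the low ones, without overlap on either side. It rose by 0.45 (SE 0.10, limma adjusted p 0.0329). Iars, the cytosolic isoleucine enzyme, read 10.70, 10.75 and 10.77, then 10.08, 10.45 and 10.19, then 10.65, 11.06 and 10.65. Its pre-CD8 arrays overlapped those of the Zbtb46-neg CDPs and lay above the Zbtb46-pos arrays. It rose by 0.55 (SE 0.13, limma adjusted p 0.0390), and its other probe set, at -0.54 for the first step (limma adjusted p 0.0116), gave 0.31 for the second (limma adjusted p 0.161).

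At the second step the Zbtb46-neg arrays enter only through the estimate of spread, which all arrays share. The count there changed with the model and the arrays fitted. It was 2 (Tars and Iars) with the replicate number as a block, where Hars2 and Yars2 had limma adjusted p of 0.0555 and 0.0519. It fell to 0 without pre-CD8 DC replicate 1 or without replicate 3, and to 1 without pre-CD8 DC replicate 2 or Zbtb46-neg CDP replicate 3. It fell to 2 without Zbtb46-neg CDP replicate 1 or 2 or Zbtb46-pos CDP replicate 3. With 1 of these arrays left out 2.30% to 4.76% of all genes were called higher, and with the block 5.00%. Without the pair of arrays low in Xist the count was 11. That kept Tars, Yars2 and Hars2 and added Ears2, Farsb, Nars, Rars, Sars, Tars2, Vars and Wars. In that fit the share of all genes called higher rose as well, from 4.76% to 12.5%.

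Over the whole span 9 members were lower in pre-CD8 DCs than in Zbtb46-neg CDPs (limma, adjusted p under 0.05) and none was higher, at an unadjusted p under 0.05 either, where 17 members were lower, against 14.5% of all genes. At the adjusted threshold 9.23% of all genes were called lower and 6.43% higher. The estimate was below 0 in 33 members, with a median log2 difference of -0.27 against 0.01 over all genes, and the pre-CD8 arrays lay wholly below in 24 members, against 19.2% of all genes. Mars2 was lower by 0.68 (SE 0.17, limma adjusted p 0.0264), Farsa by 0.62 (SE 0.14, limma adjusted p 0.0171), Lars2 by 0.61 (SE 0.13, limma adjusted p 0.00977) and Eprs by 0.50 (SE 0.09, limma adjusted p 0.00443). The other 5 were Iars2, Rars, Kars, Tars and Rars2, between -0.45 and -0.40. Iars2 was called here alone. The count was 5 without Zbtb46-neg CDP replicate 1 or pre-CD8 DC replicate 2 or 3, with 6.33% to 6.99% of all genes lower. It was 14 without Zbtb46-pos CDP replicate 1, which adds to the shared estimate of spread, with 12.8% of all genes lower. Without the arrays low in Xist the count was 9, with Tars2 in place of Mars2, and 10.8% of all genes were lower.

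**Figure D4:**
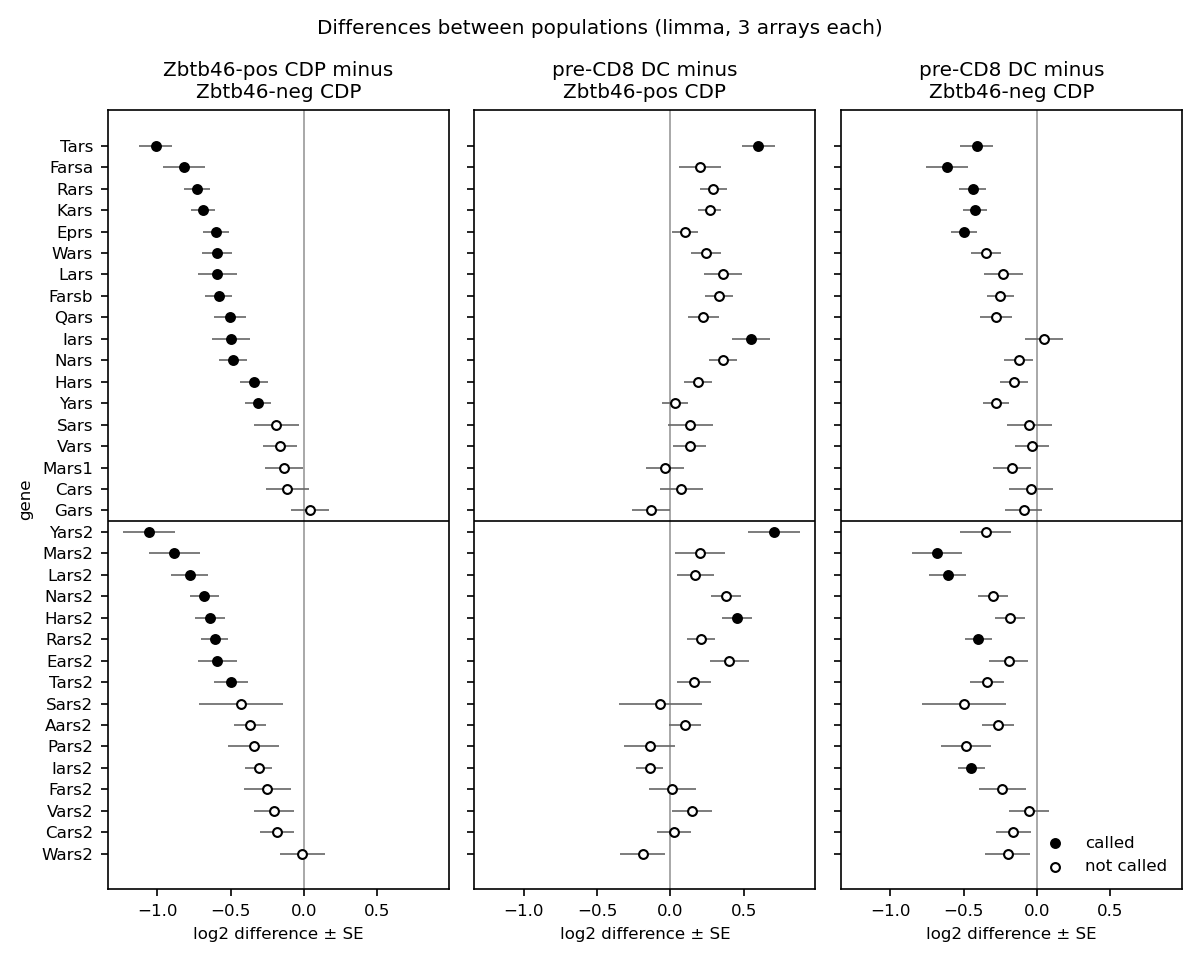
Log2 difference (horizontal axis, point and SE) of each synthetase gene in the 3 comparisons, filled where limma called it, with cytosolic forms above the line and mitochondrial forms below. Nearly all points lie below 0 at the first step, most lie above 0 at the second, and over the whole span the points remain below 0 except for Iars at 0.05.

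The steps were compared in the same fit, as the first difference minus the second. A fall at the first step can take this difference below 0 by itself, so it is no test of a later rise. Eprs, for example, was called here with a second-step estimate of 0.10 (limma adjusted p 0.598). This difference was below 0 at an adjusted p under 0.05 (limma) in 17 members, all of them among the 21 that fell at the first step, and in 6.26% of all genes. The 4 members called higher at the second step were among the 17. The difference was lowest in Yars2, at -1.76 (SE 0.30, limma adjusted p 0.0111), and in Tars, at -1.60 (SE 0.20, limma adjusted p 0.00293). The mean was lowest in Zbtb46-pos CDPs in 28 members (82.4%) and highest in Zbtb46-neg CDPs in 32 (94.1%), against 26.5% and 32.8% of all genes and 40.2% and 46.7% of the genes above the table median in 3 arrays. Both steps share the Zbtb46-pos arrays, so a low mean there enters as a fall and again as a rise. Mars2, Hars, Tars2 and Yars fell at the first step without a called difference between the steps. The 12 members called in no pairwise comparison were Aars2, Cars, Cars2, Fars2, Gars, Mars1, Pars2, Sars, Sars2, Vars, Vars2 and Wars2. The count of 17 was 7 without Zbtb46-pos CDP replicate 2 and 8 without Zbtb46-neg CDP replicate 3. It was 9 without pre-CD8 DC replicate 1 or 3, 10 without Zbtb46-neg CDP replicate 1 and 11 without Zbtb46-pos CDP replicate 3. In these fits 2.70% to 4.58% of all genes were so called. Without Zbtb46-pos CDP replicate 1 that share was 11.6%, and leaving out 1 array gave at most 23 members.

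**Figure D5:**
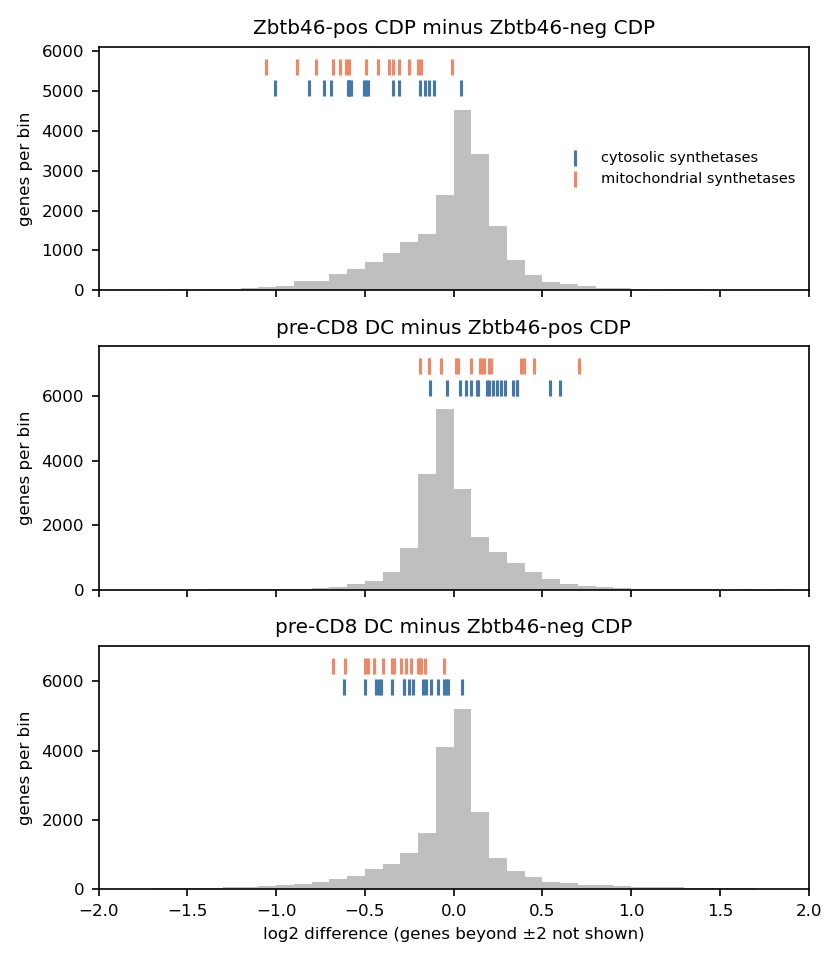
Number of genes (vertical axis) in bins of 0.1 of the log2 difference (horizontal axis) for the 3 comparisons, with a tick above the bars for each cytosolic (blue) and mitochondrial (orange) synthetase gene. At the first step the ticks lie to the left of the bulk of all genes, around a median of -0.50, and at the second step slightly to the right, around 0.18.

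Replicate 1 of the Zbtb46-pos CDPs, the array with the highest signal of mature neutrophil genes, differed from its partners in both directions. The median member lay 0.11 below its mean over the 9 arrays there, against 0.30 and 0.21 below in replicates 2 and 3, but single members spread widely. Of the 34 members 6 (Cars, Gars, Mars1, Sars2, Vars and Wars2) had their highest signal of all arrays there, and 7 (Hars, Iars, Kars, Lars, Nars2, Tars and Yars2) their lowest. Replicate 1 of the Zbtb46-neg CDPs, the other array low in Xist, held the highest signal of 19 members and the lowest of 0. The median member lay 0.36 above its mean over the 9 arrays there, against 0.17 and 0.21 above in replicates 2 and 3. The same counts over all genes were not obtained, so neither pattern is shown to be particular to the synthetases. Without the pair of arrays low in Xist 24 members fell at the first step, 18 of them among the 21. Hars, Iars and Yars were lost, and Aars2, Cars2, Iars2, Pars2, Sars2 and Vars were gained. The mitochondrial count then rose from 8 to 13 and the cytosolic count went from 13 to 11, while the share of all genes called lower rose from 10.6% to 13.8%. Tars gave -0.89 (limma adjusted p 0.000593), Yars2 -0.81 (limma adjusted p 0.0117) and Sars2 -0.64 (limma adjusted p 0.0144) in that fit. The order of the members changed there: Farsa fell most, at -0.90, and Mars2, at -0.86, and Rars, at -0.82, also fell more than Yars2. Without Zbtb46-pos CDP replicate 1 alone the mitochondrial count was also 13, with 16.4% of all genes called lower. Without Zbtb46-neg CDP replicate 1 the count of members that fell went from 21 to 15 and the cytosolic count was 8, with 6.57% of all genes called lower.

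The scale of the arrays bears on the counts over all genes. With quantile normalization of the 9 arrays the share of calls that were higher went from 26.7% to 40.9% at the first step, from 71.9% to 57.2% at the second, and from 17.9% to 39.2% for the difference between the steps. Under that normalization 17 members fell at the first step, with Hars, Iars, Lars and Yars lost, and 9 fell over the whole span. The shares of all genes called lower were 8.11% and 9.03%. At the second step 2 rose, Hars2 and Nars2, with 3.95% of all genes called higher. Median scaling moved the share of calls that were higher the other way, to 21.4% at the first step and 79.4% at the second. For the difference between the steps that share was below 17.9%. Median scaling gave 22 members lower at the first step, 6 higher at the second and 9 lower over the whole span. The shares of all genes so called were 11.7%, 5.62% and 8.43%.

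Genes that work beside the synthetases were followed in lists drawn up by function, whose counts stand against 10.6% lower and 3.85% higher among all genes at the first step and 4.76% higher at the second. Of the 3 scaffold proteins of the multisynthetase complex, Eef1e1 fell by 0.79 (limma adjusted p 0.00232) and Aimp2 by 0.54 (limma adjusted p 0.0454) at the first step. Eef1e1 then rose by 1.04 (limma adjusted p 0.00103) and was at 0.25 over the whole span (limma adjusted p 0.236), while Aimp1 was at -0.58 and then 0.87 and passed the test at neither step. Of 13 accessory genes of tRNA charging 5 fell at the first step: Prorsd1, a proofreading relative, by 0.88, Dtd1, which removes D-amino acids from tRNA, by 0.86, Gatb, a subunit of the mitochondrial glutamine amidotransferase, by 0.62, Pstk, a kinase of selenocysteine tRNA, by 0.58, and Aarsd1 by 0.39. At the second step Pstk rose by 0.68 and Prorsd1 by 0.54. Over the whole span Dtd1, Sephs2 and Aarsd1 were lower.

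For the steps after charging, elongation genes were listed. Of 5 cytosolic elongation genes measured, Eef1b2 fell by 0.60, Eif5a by 0.59 and Eef2 by 0.47 at the first step, and none was called at the second. Of 6 mitochondrial translation factors, Gfm1 fell by 0.58, Tsfm by 0.49 and Mtif2 by 0.41, and Gfm1 rose by 0.37 at the second step. Over the whole span Eif5a was lower by 0.62 and the mitochondrial elongation factor Tufm by 0.63.

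Atf4 itself gave log2 means of 9.97, 9.91 and 10.21 and was called at neither step. Of 26 measured genes of its amino acid response other than synthetases, 4 fell (15.4%) and 1 rose (3.85%) at the first step, shares near those of all genes, with a median log2 difference of -0.01. Those that fell were Phgdh by 1.37 and Shmt2 by 1.17, enzymes of serine and glycine synthesis, Asns, asparagine synthetase, by 0.83, and Slc3a2, a subunit of amino acid transporters, by 0.52. Nupr1 rose by 0.51. At the second step Slc3a2 alone was called, higher by 0.47, and over the whole span Phgdh, Shmt2 and Asns were lower and Mthfd2 and Ddit4 higher. Of 11 measured genes of amino acid sensing, Sesn1 fell by 0.97 and Eif2ak4, the kinase that binds uncharged tRNA, by 0.43 at the first step, while Rragc rose by 0.44. Eif2ak4 and Rraga rose at the second step, by 0.55 and 0.72. Over the whole span Rraga and Rragc were higher and Sesn1 lower.

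Myc fell and partly returned. Its log2 mean was 11.51 in Zbtb46-neg CDPs, 9.91 in Zbtb46-pos CDPs and 10.69 in pre-CD8 DCs, with a log2 difference of -1.60 at the first step (limma adjusted p 0.000388) and 0.78 at the second (limma adjusted p 0.0243). Of the 10 genes of Myc and its partners, Mxd4 fell from 8.42 to 7.42, Max by 0.56 and Mlx by 0.33 at the first step, and Mycl, a paralogue of Myc, rose by 0.99. Mxd4 and Mlx rose at the second step, by 0.86 and 0.47. Over the whole span Myc was lower and Mycl higher.

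Promoter windows from 250 bases before to 50 bases after the start were found in the RefSeq table for 25 of the 34 members, 1 of them with a second window. On either strand CACGTG occurred in 4 of the 26 windows (15.4%), those of Ears2, Farsb, Iars and Tars, against 7.15% of the 32851 windows of the table. All 4 of these genes were among the 15 with a window that fell at the first step, and 0 of the 10 others with a window held it. This split rests on 4 genes, and 9 members had no window. The share with the motif among all genes that fell was not obtained, and a link between motif and fall was not tested. The amino acid response core TGATGNAA occurred in 4 windows (15.4%), those of Gars, Iars, Tars and Yars, against 3.97%. Of these, Tars, Iars and Yars fell and Gars was not called. The interferon gamma activated site TTCNNNGAA occurred in 2 windows (7.69%), those of Kars and Nars2, against 8.3% of all. A match describes the letters of the window and not binding.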

How the data were processed

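RNA of 9 sorted samples, 3 per population, was labelled by a kit for picogram amounts and hybridized to Affymetrix arrays. The authors deposited RMA signal intensity values, made with Affymetrix Expression Console per the submitters' processing notes. Versions, settings and genome build are not given in the sources used here. The values were linear (7.45 to 20455.6), so log2 was taken, with no further scaling. The median signal of an array lay between 110.2 and 118.0. Precision is limited by having 3 arrays a group. Of 28853 probe sets, 21789 carried 1 symbol in the platform annotation, 1621 several, and 5443 were unnamed. For a gene with several, the probe set of highest mean was kept, which gave 19938 genes with no filter on dim ones.

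One limma 3.58.1 fit (R 4.3.3, lmFit and eBayes, group means, all 9 arrays) gave the comparisons, with Benjamini-Hochberg adjustment over all genes and calls under 0.05. It was tested on simulated data. Summaries used Python 3.11.15, numpy 2.4.6 and pandas 2.3.3. The members and lists were chosen with earlier results of these data known. Values in all arrays are given for the 4 called members with the largest difference in each comparison and for Wars, Eprs, Gars and Kars, and list members are limited to 4 called per comparison, with 1 more where a count is given in full. Same-numbered deviations of Zbtb46-neg and Zbtb46-pos CDPs correlated at 0.51, 0.42 and 0.36, each over the limit of 0.1 set for pairing. The pairing is not clean, since replicate 3 of the former correlated with replicate 2 of the latter at 0.38 and replicate 2 with replicate 3 at 0.15. Against pre-CD8 DCs the correlations were -0.03 to 0.17. Alternatives changed the filter, probe set rule, scaling, moderation, array weights, arrays fitted, replicate block, threshold and arrays included. Promoters are RefSeq's, on GRCm38.p6.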

Additional observations from a re-analysis of the deposited data

How the results depend on the processing

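The direction of each called member held under every alternative run. Changes of threshold, filter or moderation and the replicate block leave an estimate as it was, so its direction could not change there. Of the 21 falls at the first step, 13 stayed called in every alternative run (Eprs, Farsa, Farsb, Hars2, Kars, Lars2, Mars2, Nars2, Rars, Rars2, Tars, Wars and Yars2). Of the 9 over the whole span only Lars2 did, and of the 4 rises at the second step none did. With a threshold of 0.01 the counts were 13 lower at the first step (7 cytosolic), 0 higher at the second, 5 lower over the span and 5 with a difference between the steps. The shares of all genes were then 5.19%, 1.88%, 5.20% and 1.76%. Array weights gave 10 higher at the second step, 22 lower over the span and 13 mitochondrial forms lower at the first step, while the shares of all genes so called rose to 10.1%, 18.7% and 18.3%. At the second step quantile normalization gave 2, a fit of the 2 populations alone 0, and leaving out the arrays low in Xist 11, which also gave 13 mitochondrial forms lower at the first step. These settings called 3.95%, 3.01% and 12.5% of all genes higher at the second step. Requiring a log2 difference of 0.5 left 3 over the span, with 6.77% of all genes lower. Leaving out 1 array at a time gave 15 to 28 members lower at the first step (cytosolic 8 to 15, mitochondrial 7 to 13), 0 to 4 higher at the second, 5 to 14 lower over the span and 7 to 23 with a difference between the steps. The shares of all genes ran from 6.57% to 16.4%, 2.30% to 9.05%, 6.33% to 12.8% and 2.70% to 11.6%, in that order. With the replicate block 21 members fell at the first step (20 shared, with Aars2 in place of Hars), 2 rose at the second and 11 were lower over the span. The shares of all genes were 12.3%, 5.00% and 10.3%. Where a count moved, the cause was not tested. With 3 arrays a group, small differences may go undetected. The signal was dim in Ears2, Nars2, Aars2 and Wars2, of which Ears2 and Nars2 were called lower at the first step. Whether dimness hid other differences was not tested.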
